A study of Mus musculus with 2 samples.

Results

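The RNA described here came from the introns of 29 mouse genes of cytokine signalling, in the spleen of mice, either with collagen-induced arthritis (CIA) or healthy. The members were chosen by name. They are the assembled transcripts that lay inside an intron and whose host gene symbol named an interleukin, interferon, colony-stimulating factor, TNF or TGF-beta receptor, a JAK, STAT, SOCS, TRAF or SMAD protein, or a member of the NF-kB family. Transcripts in Il7r, Il1r1, Il6ra, Il2ra, Stat3 and Stat5b, 6 genes that the same names cover, were left out by the rule. This gave 51 transcripts in 29 host genes, out of 12603 intronic transcripts with 4346 host gene names and 16840 assembled transcripts in all. Of 112 protein-coding genes that fit the names in the mouse annotation, without the 6 left out, these 29 hosted intronic RNA, and Jak2 and Nfkb1 were among those that did not.

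CIA is a model of rheumatoid arthritis brought on by immunizing mice with type II collagen. The arthritis group was 1 library of spleen cells from CIA mice, and the other group was 1 library of spleen cells from mice that had no treatment. Both titles give day 40, whereas the CIA label puts the killing of the mice at day 42 after the first immunization. The labels name no strain, age, sex or number of mice for either group. With 1 library per group no difference below has a replicate check, no test across mice was possible, and every comparison is between 2 libraries. In such bulk RNA, fewer cells of a type and less RNA per cell cannot be told apart.

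Cytokines reach cells of the spleen through surface receptors that have no enzyme activity of their own or, for TGF-beta, carry a kinase. Class I and class II cytokine receptors pass the signal to JAK kinases and STAT transcription factors, which SOCS proteins restrain. Members of the TNF receptor superfamily recruit TRAF adaptors and release NF-kB from its inhibitors, and TGF-beta receptors phosphorylate SMAD proteins. RNA inside an intron may be unspliced RNA of the host gene or a separate noncoding transcript, and a library of ribosome-depleted total RNA holds both, so the levels below are levels of intronic RNA and not of the mRNA of the named gene.

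Levels are in FPKM, fragments per kilobase of transcript and 1000000 fragments. Ratios are log2((CIA + 0.1)/(healthy + 0.1)), so that 1 stands for a level 2-fold higher in the CIA library and 0 for equal levels. All 51 transcripts reached the minimum of 0.5 FPKM in either library, as did 12558 of the 12603 intronic transcripts. None of the 51 stood at the floor value of 0.0001 FPKM in either library. In the CIA library they ranged from 0.104 to 25.3 FPKM with a median of 2.91, and in the healthy library from 0.193 to 14.6 FPKM with a median of 2.50.

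Most of this intronic RNA was moderately higher in the CIA library, as was most intronic RNA in general, while interleukin receptor genes held both ends of the range. Of the 51 transcripts, 9 (17.6%) were higher in the CIA library by 2-fold or more, against 15.6% of all intronic transcripts. At least 2-fold lower were 4 (7.84%), against 10.3% of all intronic transcripts, so both shares lay near the background. The median log2 ratio of the 51 was 0.51, against 0.25 for all intronic transcripts, and 38 of the 51 (74.5%) were above 0, against 63.7% of all intronic transcripts. By host gene, 4 of 29 medians were past 2-fold on the higher side (Il20rb, Il5ra, Il1rap and Tgfbr2), against 11.7% of all host genes. At least 2-fold lower were 2 of 29 (Il1r2 and Il9r), against 10.2%. Between these, 17 host medians lay from 0 to 1, and 20 of 29 lay above the 0.25 that all intronic transcripts shared. Taken relative to that shift, the split between transcripts at least 2-fold higher and lower changed from 9 and 4 to 7 and 6, and for all intronic transcripts from 1962 and 1294 to 1332 and 1671.

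**Figure D1:**
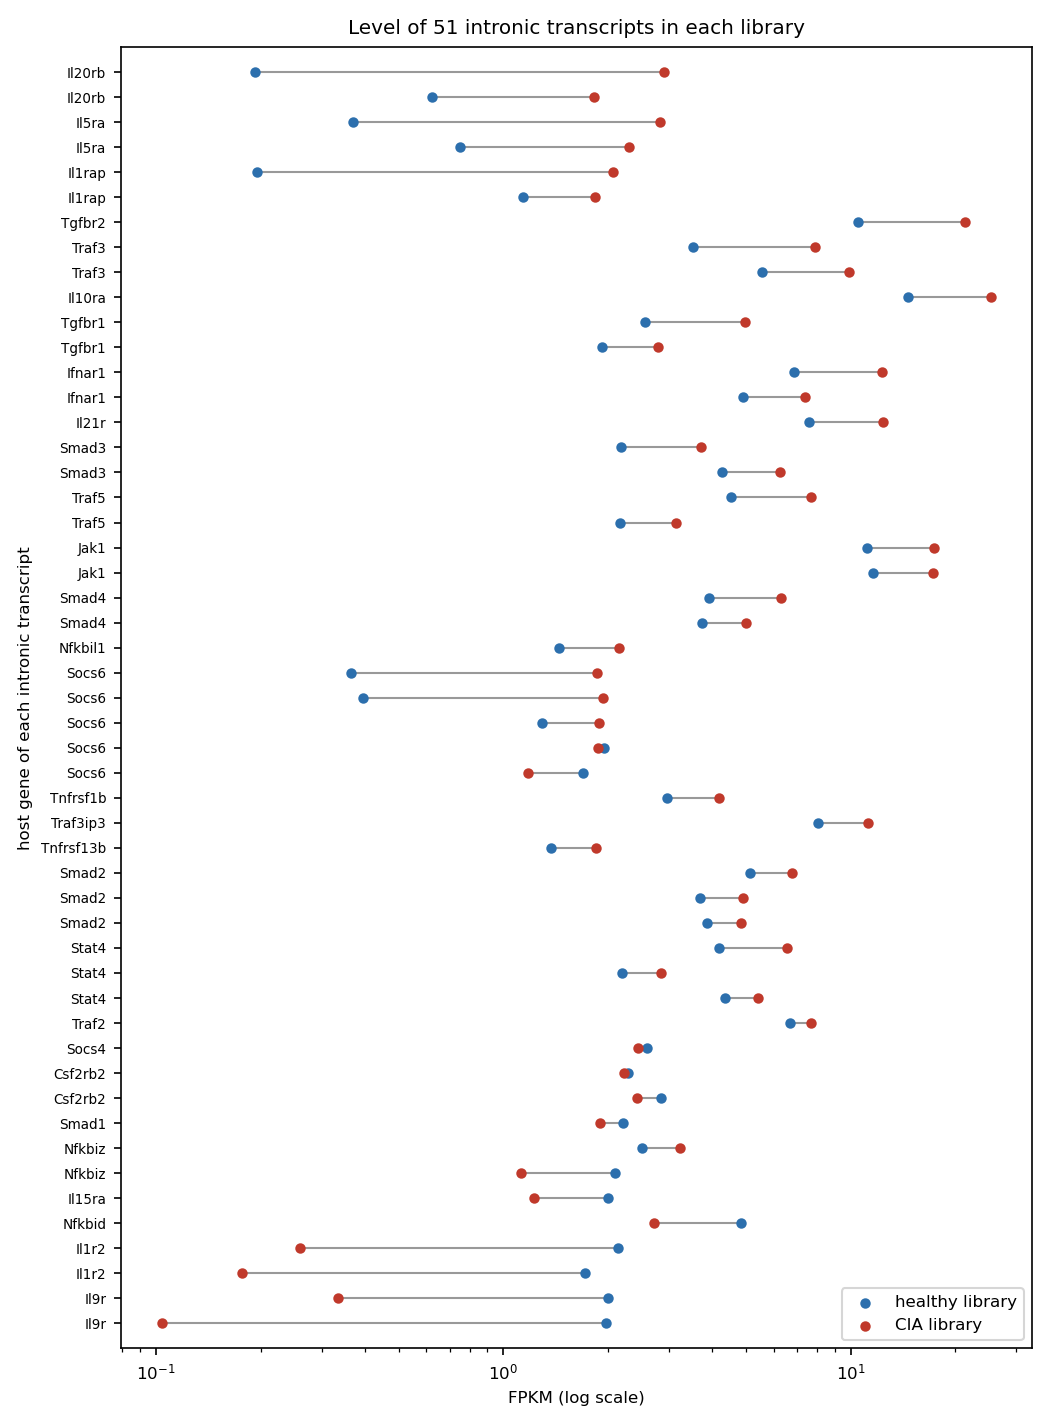
Level of each of the 51 intronic transcripts in the CIA library (red) and the healthy library (blue), in FPKM on a log axis, ordered by the median ratio of the host gene. Each line joins the 2 values of 1 transcript. The long lines, at the top, at the bottom and at Socs6, all have a lower end under 1 FPKM, and most lines in between are short with the red point to the right.

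The number of fragments behind a value differed widely between the transcripts. FPKM multiplied by the length in kilobases gives fragments per 1000000, and single-exon transcripts with little RNA piled up at 0.0502 in the CIA library and at 0.0463 in the healthy library. Values of intronic transcripts under 1000 bases were whole multiples of a 282nd of that step, within 0.1 of a part, for 95.8% of CIA and 96.6% of healthy values, against a median of 22.3% and 24.9% over all divisors from 50 to 400. Read as 1 fragment that covers 282 bases, the step gives 19.9 M fragments (M for 1000000) for the CIA library and 21.6 M for the healthy library. Of values under 6 steps only 20.5% in the CIA library and 25.2% in the healthy library were whole steps, within 0.05 of a step, so low fragment numbers are approximate. Fragment numbers below are values divided by this step and rounded. Intervals are exact 95% Clopper-Pearson intervals of the ratio of those fragments, which cover counting error only and say nothing of the spread between mice, and duplicates of 1 molecule were not told apart.

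Counted in this way, the 13 transcripts at least 2-fold apart had between 0.904 and 184 fragments in the library where they were lower, with a median of 2.07. The other 38 had between 9.07 and 3009 there, with a median of 77.3. For 8 of the 13 the lower library held under 5 fragments, and for 10 of the 13 the interval reached ratios under 2-fold. A wide ratio in itself makes the number in the lower library small, but in the library where they were higher the 13 also had fewer, with a median of 18.6 against 109. Of the 29 transcripts that were higher by less than 2-fold, the interval included equal levels for 9, and of the 9 that were lower by less than 2-fold, for 8.

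**Figure D2:**
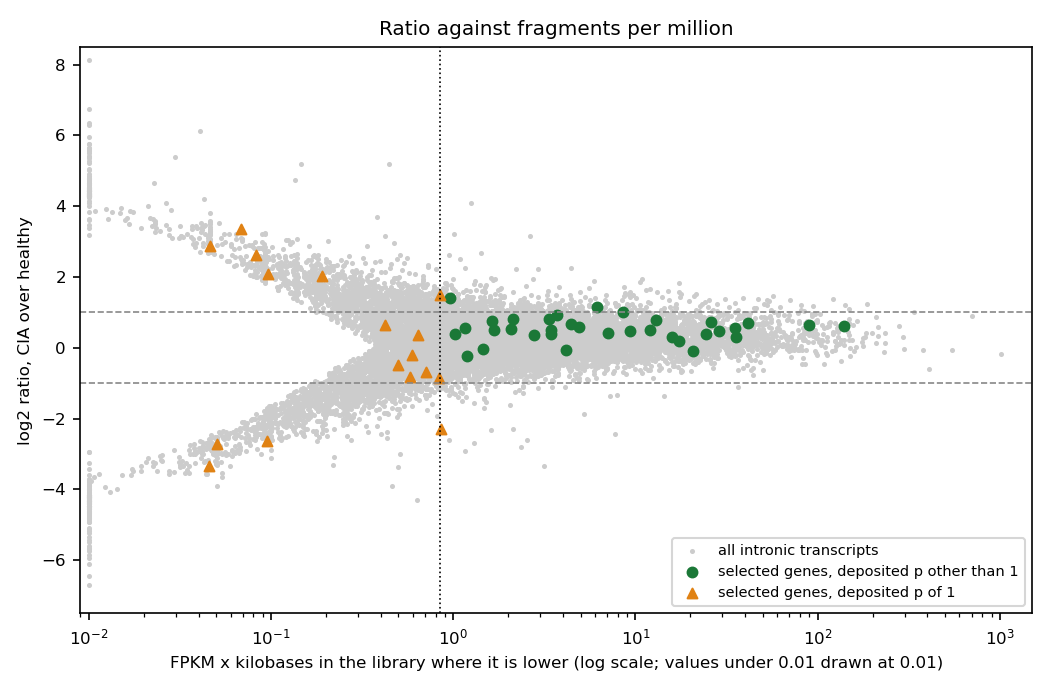
Log2 ratio of each intronic transcript (vertical axis) against its FPKM multiplied by its length in kilobases in the library where it was lower (log axis). Grey points are all intronic transcripts that passed the minimum, and green circles and orange triangles are the selected genes by the p-value in the authors' deposited table. Dashed lines mark 2-fold and the dotted line the lowest value at which that table gives an intronic transcript a p other than 1 (0.850), and of the 17 triangles 16 lie to its left.

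Interleukin receptors held 13 of the transcripts in 8 host genes. Past 2-fold lay 9 of these (69.2%), 5 higher and 4 lower in the CIA library, against 25.9% of all intronic transcripts. The 13 were short, with a median of 436 bases. Of all intronic transcripts under 500 bases, 45.1% were past 2-fold. Il20rb encodes the beta chain of the receptors for IL-19, IL-20 and IL-24. Its first transcript (chromosome 9, 100478311 to 100478666, intron 1) had 2.91 FPKM in the CIA library against 0.193 in the healthy library, for a log2 ratio of 3.36. The second, 1539 bases long in the same intron (100481429 to 100482967), had 1.82 against 0.623 FPKM, a log2 ratio of 1.41. Both were higher in the CIA library, on very different numbers of fragments. The first rested on 21 fragments against 1 (20.6 and 1.48 before rounding), with a log2 interval from 1.87 to 9.88. The second rested on 56 against 21, with an interval from 0.79 to 2.33. The authors' deposited table puts its p-value, but not its q-value, under 0.05, and both rest on 1 library per group.

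Il5ra encodes the IL-5-binding chain of a receptor that supports eosinophils and some B cells. Its transcript in intron 10 (chromosome 6, 106718447 to 106718669) had 2.82 FPKM in the CIA library and 0.370 in the healthy library, for a log2 ratio of 2.64. The one in intron 1 (106747214 to 106748338), which begins 699 bases into the gene, had 2.29 against 0.749 FPKM, a log2 ratio of 1.50. The gene was higher in the CIA library at both places, on 13 fragments against 2 in intron 10 and on 51 against 18 in intron 1, with log2 intervals from 0.67 to 6.01 and from 0.82 to 2.48. Il1rap encodes the accessory chain that the IL-1, IL-33 and IL-36 receptors share. In its intron 1 (chromosome 16, 26611491 to 26611727) a transcript had 2.06 FPKM against 0.195, a log2 ratio of 2.87 that rested on 10 fragments against 1. In intron 2 (26628824 to 26629191) the other had 1.84 against 1.14 FPKM, a log2 ratio of 0.64, on 13 fragments against 9. The host median of Il1rap, 1.76, therefore lies between a transcript far apart and one whose log2 interval, from -0.69 to 2.05, includes 0.

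Il1r2 and Il9r were the only host genes with every transcript past 2-fold on the lower side. Il1r2 encodes the decoy receptor that binds IL-1 without signalling. Its transcript in intron 1 (chromosome 1, 40094123 to 40094488) had 0.260 FPKM in the CIA library and 2.13 in the healthy library, for a log2 ratio of -2.63. In intron 3 (40106303 to 40106587) the levels were 0.176 and 1.71 FPKM, a log2 ratio of -2.72. Both pieces were low in the CIA library, and both had few fragments, 2 against 17 and 1 against 11, with log2 intervals from -6.13 to -0.90 and from -8.77 to -0.56.

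An annotated transcript in the same gene was also lower in the CIA library. Gm37347, a noncoding RNA of 1 exon and 3071 bases on the strand of Il1r2 (chromosome 1, 40088511 to 40091581), had 0.369 FPKM in the CIA library and 1.19 in the healthy library, for a log2 ratio of -1.46. It lies closer to the start of the gene than both assembled pieces, and all 3 stood lower in the CIA library. Gm37347 was chosen after its value was seen, and no fragment number was derived for it. As it lies on the strand of Il1r2, its reads may come from the same unspliced RNA, so it is no separate support. Its opening bases in the GENCODE M21 transcripts (GRCm38, plus strand), shown because it is the one annotated RNA inside a host gene past 2-fold that passed the minimum, read:
Gm37347: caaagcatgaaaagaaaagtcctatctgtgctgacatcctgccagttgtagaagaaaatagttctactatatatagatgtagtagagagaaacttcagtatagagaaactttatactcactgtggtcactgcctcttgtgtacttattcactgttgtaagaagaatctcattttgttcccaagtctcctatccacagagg

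Il9r encodes the receptor chain for IL-9, a cytokine of T cells and mast cells. Both of its transcripts lie in intron 1. The longer (chromosome 11, 32195618 to 32198173) had 0.333 FPKM in the CIA library and 2.0 in the healthy library, for a log2 ratio of -2.28. The shorter (32198508 to 32198943) had 0.104 against 1.98 FPKM, a log2 ratio of -3.35 that rested on 1 fragment against 19. Intronic RNA of Il9r was low in the CIA library over the whole assembled stretch, and the longer transcript rested on 17 fragments against 110, with a log2 interval from -3.41 to -1.83. Among the 13 transcripts at least 2-fold apart, only both Il9r transcripts and the first of Il20rb had an interval wholly beyond 2-fold. Each of these was under 0.5 FPKM in the library where it was lower, and passed the minimum only through the other library. The intervals allow neither for that nor for the choice of the widest ratios, so they do not set these transcripts apart.

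The upstream sequences of 4 of the 6 host genes past 2-fold are shown, those of the highest and the lowest median (Il20rb and Il9r), of the most abundant (Tgfbr2) and of the one that held a motif searched (Il1r2). They are the 250 bases before the RefSeq gene start on GRCm38.p6, 5′ to 3′ on the strand of the gene, for Il20rb chr9:100486474-100486723 (minus strand), Tgfbr2 chr9:116175364-116175613 (minus strand), Il1r2 chr1:40085843-40086092 (plus strand) and Il9r chr11:32200280-32200529 (minus strand). For Il1r2 and Il20rb the RefSeq start lies inside the gene as GENCODE M21 annotates it, from whose start the distances in this text were taken. Both of these windows therefore lie within the annotated gene and not before it. Capitals mark a match to the STAT-binding GAS motif, TTCNNNGAA, which reads the same on both strands.
Il20rb: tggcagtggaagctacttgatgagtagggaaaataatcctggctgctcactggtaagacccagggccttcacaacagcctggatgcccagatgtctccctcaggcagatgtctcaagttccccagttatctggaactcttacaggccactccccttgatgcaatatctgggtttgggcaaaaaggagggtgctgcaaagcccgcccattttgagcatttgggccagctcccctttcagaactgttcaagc
Tgfbr2: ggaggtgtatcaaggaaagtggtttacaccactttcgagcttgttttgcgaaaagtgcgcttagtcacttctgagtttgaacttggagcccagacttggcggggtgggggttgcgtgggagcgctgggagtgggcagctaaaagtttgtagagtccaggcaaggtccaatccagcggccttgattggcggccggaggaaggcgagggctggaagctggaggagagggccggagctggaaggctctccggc
Il1r2: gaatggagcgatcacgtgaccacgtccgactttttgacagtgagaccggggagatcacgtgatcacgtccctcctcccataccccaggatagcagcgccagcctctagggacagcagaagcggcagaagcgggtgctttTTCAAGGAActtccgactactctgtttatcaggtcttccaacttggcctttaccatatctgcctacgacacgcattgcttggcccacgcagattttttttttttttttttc
Il9r: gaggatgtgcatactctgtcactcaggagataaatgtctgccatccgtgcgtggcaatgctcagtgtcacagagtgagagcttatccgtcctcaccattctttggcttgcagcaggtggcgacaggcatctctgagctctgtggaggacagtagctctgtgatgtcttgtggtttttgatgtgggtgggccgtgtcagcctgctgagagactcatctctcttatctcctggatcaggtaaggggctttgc
The one match, TTCAAGGAA in Il1r2, lies 111 to 103 bases before the RefSeq start, within the GENCODE span of the gene. Windows were found for 24 of the 29 host genes, 30 windows in all, and 5 of the 30, in Csf2rb2, Il1r2, Nfkbid and Tnfrsf1b, held the motif, against 7.02% of 32851 windows of the same length. The kappaB motif of NF-kB, searched by its name on both strands, was in 2 of the 30, those of Nfkbid and Traf3, against 7.25% of all windows. A match describes letters in the window and not a bound site.

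The remaining 3 interleukin receptors differed less between the libraries. Il10ra encodes the ligand-binding chain for IL-10, an anti-inflammatory cytokine. Its transcript, on the opposite strand in intron 5, was the most abundant of the 51, at 25.3 FPKM in the CIA library and 14.6 in the healthy library. The log2 ratio was 0.78, on 448 fragments against 281, with an interval from 0.57 to 1.01. Il21r, the receptor for a cytokine of follicular helper T cells that acts on B cells, had 12.4 against 7.57 FPKM, a log2 ratio of 0.70. Both were higher in the CIA library by less than 2-fold. Il15ra, the chain that presents IL-15 to neighbouring cells, had the lower level in the CIA library, at 1.22 FPKM in the CIA library and 2.0 in the healthy library, for a log2 ratio of -0.67, on 14 fragments against 25 and with an interval from -1.78 to 0.28 that includes 0.

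The other receptors of haematopoietic cytokines, interferons and TNF family ligands stayed within 2-fold. Ifnar1 encodes a chain of the type I interferon receptor. Its transcripts in introns 2 and 6, both on the strand of the gene, had 12.3 against 6.87 FPKM and 7.41 against 4.89 FPKM, log2 ratios of 0.83 and 0.59. Csf2rb2, the mouse beta chain specific to IL-3, had 2.23 against 2.28 and 2.42 against 2.84 FPKM, log2 ratios of -0.03 and -0.22. Reads of Csf2rb2 are uncertain because its neighbour Csf2rb is nearly identical in sequence. Ifnar1 was thus higher in the CIA library at both places, and Csf2rb2 about level.

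Tnfrsf1b encodes TNF receptor 2, found on T cells and myeloid cells. Its transcript of 2 exons on the opposite strand in intron 1 had 4.18 FPKM in the CIA library and 2.96 in the healthy library, for a log2 ratio of 0.49. Tnfrsf13b, which encodes the BAFF and APRIL receptor TACI of B cells, had 1.85 against 1.37 FPKM, a log2 ratio of 0.41. Its interval, from -0.39 to 1.34, includes 0. Of 20 genes with Tnfrsf names, only these 2 hosted intronic transcripts. That compares with 8 of 37 genes with interleukin receptor names and 4 of 8 SMAD genes. Genes of the TNF receptor superfamily under other names were not counted. The 37 do not count Il7r, Il1r1, Il6ra and Il2ra, which the rule left out and which all hosted intronic transcripts, so these shares are not comparable between families.

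**Figure D3:**
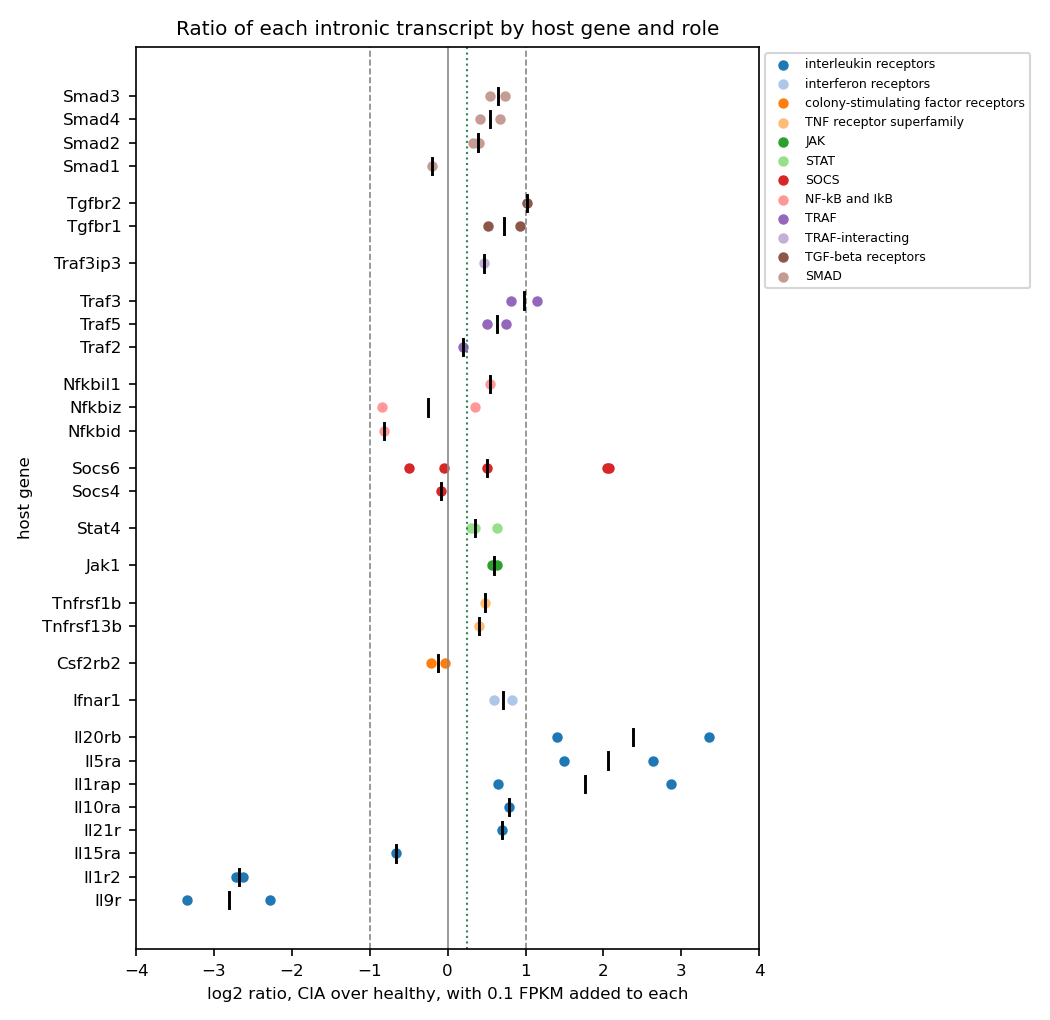
Log2 ratio, CIA over healthy, of each of the 51 transcripts (points, coloured by role) for each host gene, with the host median as a black bar. Solid, dashed and dotted lines mark 0, 2-fold and the median of all intronic transcripts (0.25). Points of Il20rb, Il5ra and Il1rap reach furthest to the right and those of Il1r2 and Il9r furthest to the left, while TRAF, JAK, STAT and most SMAD points lie between 0 and 1.14.

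The signal carriers downstream of the receptors were mostly higher in the CIA library, as was most intronic RNA. Of the 29 transcripts of the 15 genes of intracellular proteins, 23 (79.3%) were above 0, against 63.7% of all intronic transcripts. Their median log2 ratio was 0.47, against 0.25. Past 2-fold lay 3 (10.3%), all on the higher side, against 25.9% of all intronic transcripts on either side. The host medians of Socs4, Smad1, Nfkbiz and Nfkbid were below 0. Jak1 encodes a kinase that many cytokine receptors use. Its transcripts, on the opposite strand in intron 1, had 17.3 against 11.2 FPKM and 17.2 against 11.6 FPKM. The log2 ratios of 0.63 and 0.57 lay closer together than those of any other host gene with several transcripts. The longer, of 12486 bases, held 4308 fragments against 3009, more than any other of the 51, with a log2 interval from 0.57 to 0.70.

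Stat4 encodes the transcription factor through which IL-12 drives Th1 cells. In intron 4 of Stat4 lie transcripts at 5.39 against 4.35 FPKM and at 6.55 against 4.17 FPKM, and in intron 7 one at 2.84 against 2.20 FPKM. Their log2 ratios of 0.30, 0.64 and 0.36 were all above 0. The interval of the last, from -0.16 to 0.88, includes 0. The annotated noncoding RNA Gm28177, which overlaps Stat4 on the same strand, had 0.573 FPKM in the CIA library and 0.951 in the healthy library, for a log2 ratio of -0.64, opposite to the 3 intronic pieces.

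The suppressors of cytokine signalling were mixed. Socs6, whose protein takes part in the degradation of signalling proteins, hosted 5 transcripts, the most of any of the 29 genes, over an annotated span of 262 kb. Among 3 pieces in intron 6, 194 to 198 kb from the start, those nearer the start had 1.94 against 0.395 FPKM and 1.86 against 0.364 FPKM, log2 ratios of 2.04 and 2.08. The furthest piece had 1.18 against 1.69 FPKM, a log2 ratio of -0.49. The pieces in introns 1 and 2, nearer the start, had 1.88 against 1.30 and 1.88 against 1.95 FPKM, log2 ratios of 0.51 and -0.05. Within 1 gene the transcripts thus ran from lower to over 4-fold higher in the CIA library, a range of 2.57 and the widest of the 17 host genes with several transcripts. The pieces past 2-fold rested on 19 fragments against 4 and 10 against 2, with log2 intervals from 0.78 to 4.38 and from 0.21 to 5.67. Socs4 had 2.43 against 2.59 FPKM, a log2 ratio of -0.09.

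TRAF adaptors, which carry signals of the TNF receptor superfamily, were higher in the CIA library in all 5 transcripts. Traf3 restrains noncanonical NF-kB signalling. It had 7.88 against 3.52 FPKM in a transcript on its own strand in intron 1 (chromosome 12, 111198797 to 111200540) and 9.87 against 5.55 FPKM in another further on in that intron. The log2 ratios were 1.14, with an interval from 0.87 to 1.48 on 274 fragments against 132, and 0.82. Relative to the median of all intronic transcripts the first was 0.89. Traf5 had 7.70 against 4.52 and 3.13 against 2.17 FPKM, log2 ratios of 0.75 and 0.51. The interval of the second, from -0.12 to 1.20, includes 0. Traf2, needed for canonical NF-kB signalling by TNF receptors, had 7.68 against 6.70 FPKM, and its log2 ratio of 0.19 was below the 0.25 of all intronic transcripts. The interval of Traf2, from -0.01 to 0.40, includes 0 as well. Traf3ip3, which the name rule took in and which is a TRAF3-interacting protein of lymphocytes, had 11.2 against 8.03 FPKM, a log2 ratio of 0.47. The annotated antisense RNA Gm15872 in the same gene had 5.27 against 3.72 FPKM, a log2 ratio of 0.49, on the same strand as the assembled transcript.

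The genes with Nfkb names were the group of intracellular proteins with the lowest median log2 ratio, -0.23 over 4 transcripts, of which 2 were above 0. Nfkbid encodes a nuclear inhibitor of the IkB family. Its transcript had 2.71 FPKM in the CIA library and 4.84 in the healthy library, for a log2 ratio of -0.81. Nfkbiz, a nuclear IkB protein that co-activates inflammatory genes, had 1.12 against 2.10 and 3.21 against 2.50 FPKM in intron 2, log2 ratios of -0.84 and 0.35. Nfkbil1, in the major histocompatibility region, had 2.16 against 1.45 FPKM, a log2 ratio of 0.54. An assembled transcript on the exons of Nfkbil1 from the other strand, which is no member, had 5.09 against 5.51 FPKM. Nfkbid and the first Nfkbiz piece were lower in the CIA library, and none of the 4 reached 2-fold. Relative to the median of all intronic transcripts these 2 did, at -1.06 and -1.10. They rested on 12 fragments against 22 and 17 against 34, and the log2 interval of Nfkbid, from -1.91 to 0.32, includes 0. That of the first Nfkbiz piece, from -1.82 to -0.003, ends just below 0. The intervals of Nfkbil1, from -0.02 to 1.14, and of the other Nfkbiz piece, from -0.82 to 1.46, include 0 as well.

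Both TGF-beta receptor genes and 3 of the 4 SMAD genes were higher in the CIA library. Tgfbr2 encodes the receptor kinase that binds TGF-beta. Its transcript on the strand of the gene in intron 1 (chromosome 9, 116168762 to 116169570) had 21.3 FPKM in the CIA library and 10.5 in the healthy library, for a log2 ratio of 1.01. It was the second most abundant of the 51 and just past 2-fold, on 343 fragments against 184, with an interval from 0.75 to 1.28, and relative to the median of all intronic transcripts it was under 2-fold, at 0.76. Tgfbr1, the partner kinase that Tgfbr2 activates, had 4.96 against 2.55 and 2.79 against 1.92 FPKM, log2 ratios of 0.93 and 0.52.

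Smad2 and Smad3 encode the SMAD proteins that TGF-beta receptors phosphorylate, and Smad4 encodes their common partner. Smad2 had 4.89 against 3.69, 6.79 against 5.14 and 4.83 against 3.85 FPKM, log2 ratios of 0.39, 0.40 and 0.32. Smad3 had 3.71 against 2.19 and 6.28 against 4.26 FPKM, log2 ratios of 0.74 and 0.55. Smad4 had 6.32 against 3.91 and 5.00 against 3.74 FPKM, log2 ratios of 0.68 and 0.41. All 7 transcripts of these genes were higher in the CIA library by less than 2-fold. The log2 intervals of the second Smad2 and the second Smad3 transcript, from -0.06 to 0.86 and from -0.23 to 1.37, include 0. Smad1, which BMP receptors use instead, had 1.90 against 2.21 FPKM, a log2 ratio of -0.20. It rested on 12 fragments against 15, with an interval from -1.43 to 0.99 that includes 0. One of the Smad3 transcripts was the only one of the 51 whose span overlapped an annotated exon, that of Smad3 itself.

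Transcripts of 1 gene mostly stood on the same side. Among the 17 host genes with several transcripts, 15 had all of them on the same side of 0, the exceptions being Socs6 and Nfkbiz. The same count was not taken over all host genes, and 74.5% of the 51 transcripts were above 0. It is therefore not read as a trait of these genes. The range of log2 ratios within a gene had a median of 0.32 and was under 0.5 in 11 of the 17. Transcripts of 1 gene can be parts of 1 unspliced RNA and are not replicates.

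Ratios were narrow where levels were high. At a mean of at least 3 FPKM, a limit chosen after the values were seen, 23 transcripts of 16 genes ran from -0.81 to 1.14, with 22 above 0, 2 at least 2-fold higher (Tgfbr2 and Traf3) and 0 lower. At that level 73.8% of all intronic transcripts were above 0. Below that mean, 28 transcripts ran from -3.35 to 3.36, with 7 at least 2-fold higher and 4 lower. All intronic transcripts showed a like difference, with 251 higher and 39 lower of 3449 at the higher levels against 1711 and 1255 of 9109 below. In the authors' deposited table, 17 of the 51 have a p-value of 1, among them 10 of the 13 at least 2-fold apart. That table marks 3 of the 51 as significant, Tgfbr2 with a p-value of 0.182, Traf3 with 0.123 and the longer Il20rb transcript with 0.0415, against 5.37% of all intronic transcripts.

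**Figure D4:**
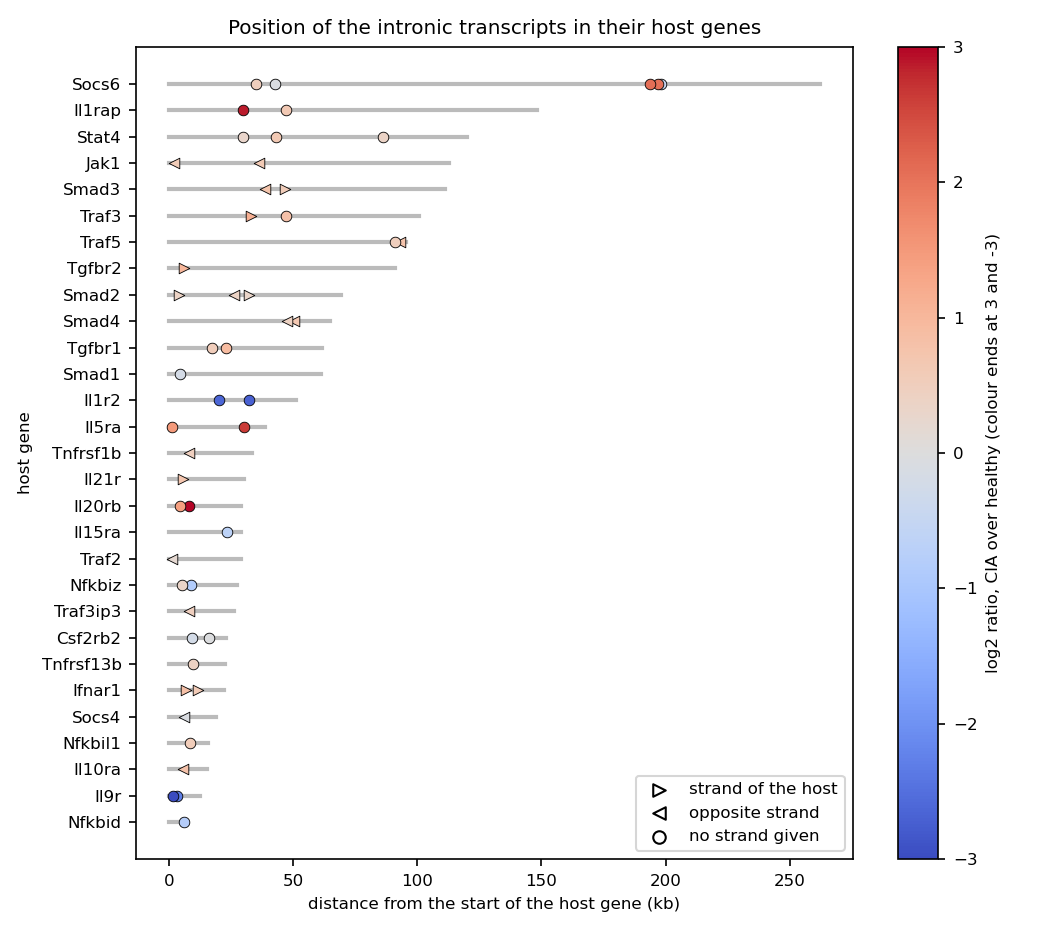
Position of the 51 transcripts along their host genes, as the distance of each transcript's middle from the annotated start in kilobases, with grey lines for the length of each gene. Colour gives the log2 ratio (red higher and blue lower in the CIA library), right-pointing triangles the strand of the host, left-pointing triangles the opposite strand and circles transcripts with no strand. The deep red and deep blue symbols of Il20rb, Il5ra, Il1rap, Il9r, Il1r2 and Socs6 are circles, and no left-pointing triangle has a deep colour.

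The transcripts shared some features that the rule did not use. They lay nearer the start of the host gene than intronic transcripts in general, at a median of 15.9 kb against 35.2 kb, and 23 of 51 (45.1%) were in the first intron against 34.1%. The introns that held them were also shorter, with a median of 15002 bases against 28561, and the part of intron length in these distances was not tested. Within 1000 bases of an exon of the host lay 41.2% against 28.4%. Only 60.8% had no strand, against 75.3%, and 12 were on the strand opposite to the host and 8 on the same strand. None of those 12, among them the transcripts of Jak1, Il10ra and Traf2, was at least 2-fold apart, against 13.6% of all intronic transcripts on the opposite strand, a share that leaves few to be seen among 12. The single-exon share was 94.1% against 92.8%. Host genes had a median span of 33.4 kb against 23.2 kb for the other genes that fit the names.

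Genes of the same pathways outside the name rule had a median nearer that of all intronic transcripts. Of 105 such genes, from gp130 and other receptor chains to kinases, transcription factors and negative regulators, 38 hosted 129 intronic transcripts. Their median log2 ratio was 0.29, with 17 transcripts at least 2-fold higher and 11 lower, and 3 host medians at least 2-fold higher and 2 lower. Gab2, an adaptor of cytokine receptors, hosted 22 transcripts with a median of -0.20, and the transcription factor Foxp1 hosted 16 with a median of 0.65. Acvr2a, an activin receptor, and Pias2, an inhibitor of STAT proteins, hosted 7 each with medians of 0.05 and 0.28. Smurf1, a ubiquitin ligase for SMAD proteins, hosted 5 with a median of 0.86. The 6 genes left out by the rule hosted 21 transcripts with a median of 0.40, from 0.94 in Il7r to -0.57 in Il2ra as host medians.

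Intronic RNA of lineage marker genes also differed between the libraries, read in the same table because it holds no mRNA. Of 11 T cell markers 5 (Cd247, Lef1, Bcl11b, Themis and Skap1) hosted 48 transcripts, of which 42 were past 2-fold, all higher in the CIA library, and their summed level was 156 FPKM against 62.8. Of 10 B cell markers 4 hosted 26 transcripts, with a median log2 ratio of 0.72 and a sum of 330 against 209 FPKM. Of 9 erythroid markers 2 hosted 9 transcripts, with a median of -0.33 and a sum of 80.1 against 93.7 FPKM. Spi1 alone of 12 myeloid markers hosted one, at a log2 ratio of 0.28, Pecam1 alone of 7 stromal and endothelial markers hosted 7 with a median of 1.08, and no marker of NK cells or platelets hosted any. The T cell, B cell, myeloid and stromal and endothelial markers thus had medians above 0, and the erythroid markers a median below 0. Above 0 is also where 63.7% of all intronic transcripts stood. The part of these cell types in the results was not tested.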

How the data were processed

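Total RNA of spleen cells was extracted with TRIzol and depleted of ribosomal RNA with Ribo-Zero, per the labels' protocols. Transcripts were assembled with StringTie, per the submitters' processing notes. The alignment tool, the reference build, any strand setting and the method of the p-values are all not given in the sources used here. All 15172 annotated transcripts deposited had the chromosome, start and end of GENCODE M21, so coordinates are given as GRCm38.

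The authors deposited FPKM values per transcript and library, per the file headers, with 0.0001 in place of 0. The p-values were deposited by the authors and are only quoted. The columns named model and control were taken as CIA and healthy.

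Class code i marked intronic transcripts. A transcript entered when either library reached 0.5 FPKM, 0.1 FPKM was added, and a size rule of 2-fold stood in for a test. The rule was tried first on simulated levels set higher than in the data, with changes beyond 2-fold and little noise. That trial says nothing of transcripts with few fragments. The pseudocount understates the ratios of low transcripts. Medians were taken per host gene. Introns were numbered along an annotated transcript that has the intron. As FPKM keeps no counts, fragments were derived from the step between low values, a step added after seeing the data. Reads on overlapping or antisense genes cannot be told apart without a stated strand setting.

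The members and lists were chosen with earlier results of these data known. The rule for named genes took every host with 5 or more members, the 6 highest and 6 lowest host medians, the most abundant host per role, and the 8 highest, 8 lowest and 5 most abundant transcripts. The highest and lowest member of hosts with 3 or more were also taken. The other host genes, the annotated transcripts and the upstream windows were chosen after their values were seen. Sequences came from the RefSeq promoter table on GRCm38.p6 and from GENCODE M21. The sequences of the intronic transcripts themselves were not analysed here. Of the genes these rules name, 1 is not reported here. Alternatives were other pseudocounts, minimums and folds, centring, and subsets of the transcripts. Python 3.11.15, numpy 2.4.6, pandas 2.3.3 and matplotlib 3.10.9 were used.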

Additional observations from a re-analysis of the deposited data

How the results depend on the processing

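No host gene and no transcript past 2-fold changed direction under the alternatives that were run, and Traf2 alone of the 29 host genes changed sign, to -0.06 when centred on all intronic transcripts. With a pseudocount of 1 FPKM, 5 transcripts and 2 host genes were at least 2-fold higher, and the medians were 0.38 over transcripts and 0.39 over host genes. Il1rap, at 0.88, and Tgfbr2 were then under 2-fold. Centring gave medians of 0.26 over transcripts and 0.26 over host genes, with 0 for all intronic transcripts by construction, and put Tgfbr2, at 0.76, and Traf3 under 2-fold and Nfkbid, at -1.06, and 1 Nfkbiz transcript past it. A 4-fold rule left 5 transcripts and 2 host genes higher. Among alternatives added after seeing the data, transcripts with a p-value other than 1 in the authors' deposited table gave 3 transcripts and 2 host genes at least 2-fold higher and 0 of either lower. Those with a mean of at least 3 FPKM gave 2 transcripts and 1 host gene higher and 0 of either lower. Without Socs6, 7 transcripts were at least 2-fold higher. No paired analysis was possible because there was only 1 library a group, and for the same reason no library could be left out. Few fragments limit the wide ratios of Il20rb, Il5ra, Il1rap, Il1r2, Il9r and Socs6, and the ratios of Nfkbid, Nfkbiz, Il15ra and Smad1.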
